A study of Mus musculus with 12 samples.

Results

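The genes described here encode the contractile apparatus of the heart muscle cell, namely the sarcomere, the Z-disc that bounds it and the M-band at its centre. They were taken as a list of 38 gene symbols and matched by exact symbol in the deposited tables of all 12 samples, where 38 of 38 symbols were found among 33641 listed genes. Transcript levels are in TPM, the transcripts of a gene per 1000000 transcripts of its sample, a unit that divides reads by transcript length. The 38 genes fall into 5 thick filament genes, 9 thin filament genes, 5 genes of titin and the M-band, 11 Z-disc genes, 2 intermediate filament genes, 2 Xin repeat genes and 4 genes of sarcomere assembly and turnover.

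The samples were ventricular tissue of humanized mice in which the endogenous phospholamban (PLN) locus carries a human PLN coding sequence, either wild type (WT-PLN) or lacking arginine 14 (R14del-PLN). Both genotypes carry the human insert, so that WT-PLN is the humanized control and not an unmodified mouse, and the mutants were heterozygous (R14del/WT) according to the study's methods. All mice were C57BL/6J by their labels and aged 12 to 14 weeks. The study's methods instead describe a hybrid line, founded by chimeras of mixed strain crossed with Sox2-Cre mice, and state that males were used. The left ventricle (LV) and the right ventricle (RV) were sampled in 3 replicates for each genotype, giving 4 groups of 3, and the comparisons asked how transcripts differed between genotypes in each ventricle and between ventricles in each genotype. The titles call the mutant samples KO while the genotype label calls them R14del-PLN, and the label was followed.

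In striated muscle, myosin thick filaments slide along actin thin filaments, and calcium bound to the troponin complex on the thin filament permits the cross-bridges to form. Titin spans the sarcomere from the Z-disc, where thin filaments of neighbouring sarcomeres are anchored by alpha-actinin, to the M-band, where thick filaments are cross-linked. PLN inhibits the pump that returns calcium to the sarcoplasmic reticulum, so that these genes encode the machinery that responds to the calcium which PLN controls.

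Together the 38 genes held between 4.79% and 7.29% of all TPM. The mitochondrially encoded genes took 37.3% to 54.5% of TPM, and the share of the 38 genes was highest in the sample with the least mitochondrial transcript (LV R14del-PLN replicate 3) and lowest in the sample with the most (RV R14del-PLN replicate 3). After the mitochondrially encoded genes were removed, the share ranged from 10.2% to 12.6%, and the highest was RV R14del-PLN replicate 2. LV R14del-PLN replicate 3 had the highest TPM of the 12 samples for 25 of the 38 genes, but for only 5 after that removal, when RV R14del-PLN replicate 2 was highest for 19.

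**Figure D1:**
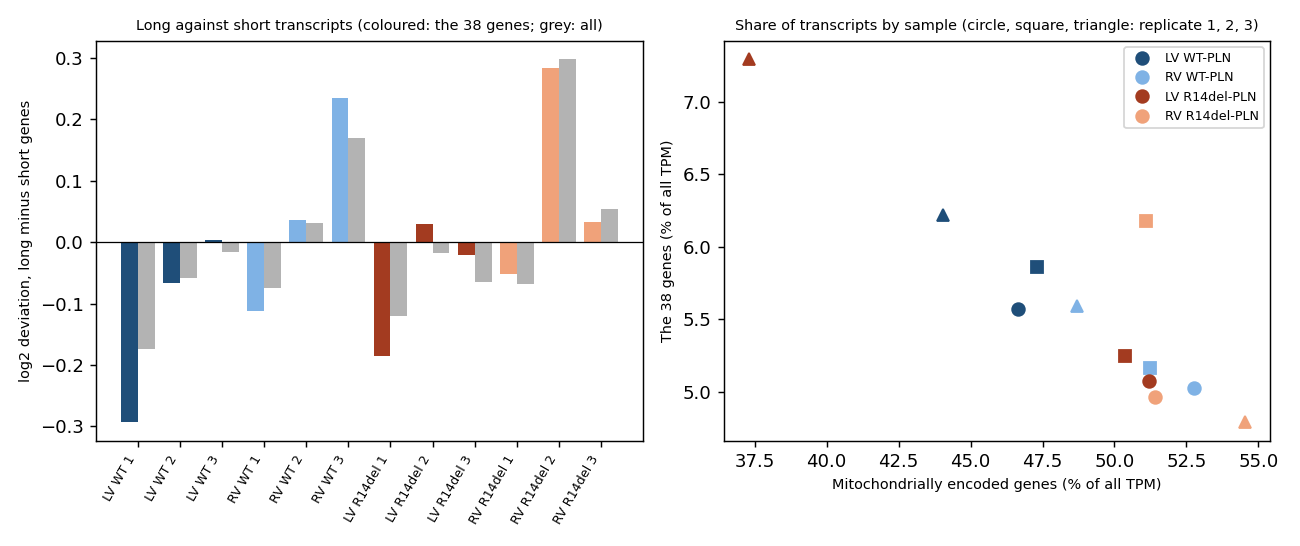
Left, per sample, the median log2 deviation of genes with transcripts of at least 5 kb minus that of genes with transcripts of at most 1.5 kb, for the 38 genes (coloured) and for all tested genes with a known length (grey). Right, the share of the 38 genes in all TPM against the share of mitochondrially encoded genes, 1 point per sample, falling from 7.29% at the lowest mitochondrial share (37.3%) to 4.79% at the highest (54.5%).

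The tissue carried its defining transcripts, since all 8 cardiomyocyte markers outside the list were detected, with summed levels of 15917 to 23652 TPM. Markers of skeletal muscle summed to only 2.64 to 9.47 TPM, whereas 7 atrial markers varied from 58.7 to 1343 TPM across samples. Mouse Pln, the targeted gene, was at 1559 to 1963 TPM, and this level does not tell the alleles apart, so that the genotype labels were not checked by it. The summed level of 4 Y-linked genes was at most 0.284 TPM in replicate 1 of LV and RV WT-PLN against 43.5 to 63.7 TPM in the other samples, although the study describes male mice. RV R14del-PLN replicate 3 came from another sequencing run than the other 11 samples by the run numbers of the deposited tables. The labels do not say whether samples came from separate mice or whether an LV and an RV sample share one, so p-values measure the spread between these samples, and TPM gives no read depth and hence no counting error. In bulk tissue, fewer cells of a type and less RNA per cell cannot be told apart.

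Within the thick filament, Myl2, the regulatory light chain of ventricular myosin, was the most abundant of the 38 genes. Its TPM was 13173, 12807 and 13038 in LV WT-PLN, and 11318, 11089 and 11564 in RV WT-PLN. In R14del-PLN it was 11622, 11167 and 16486 in LV, and 10725, 13344 and 10599 in RV. The 2 WT-PLN groups did not overlap, while the 2 R14del-PLN groups did because of a high LV replicate 3 and a high RV replicate 2. Myh6, the alpha-myosin heavy chain and the main motor of the adult mouse ventricle, averaged 4605 TPM over the 12 samples and ranged 2.56-fold, from 3221 TPM in LV R14del-PLN replicate 1 to 8262 TPM in RV R14del-PLN replicate 2. The essential light chain Myl3 averaged 4462 TPM, the cross-bridge modulator Mybpc3 averaged 849.9 TPM and Mylk3, a kinase that phosphorylates Myl2, averaged 205 TPM.

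The thin filament genes with the highest levels were Tnnt2 (7026 TPM), Tpm1 (6600 TPM), Actc1 (5371 TPM), Tnni3 (4069 TPM) and Tnnc1 (2801 TPM), which encode the subunits of the regulated actin filament. Tnnt2, the troponin subunit that binds tropomyosin, was at 6730, 6869 and 7214 TPM in LV WT-PLN and at 6969, 6634 and 7203 TPM in RV WT-PLN. In R14del-PLN it was at 6170, 6474 and 8540 TPM in LV and at 7325, 8251 and 5936 TPM in RV. Thus all 4 groups overlapped for Tnnt2. Lmod2 and Tmod1, which act on the pointed end of the thin filament, averaged 385 and 102 TPM, Nebl, a nebulin relative of the Z-disc end, averaged 100.2 TPM, and Fhod3, an actin-assembling formin, averaged 69.1 TPM.

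Titin (Ttn) averaged 41.1 TPM and the kinase-like Alpk3 averaged 23.3 TPM. The M-band cross-linkers Myom2 and Myom1 averaged 300.4 and 197 TPM, and Cmya5 averaged 84.9 TPM. Myom2 was at 255, 336 and 322 TPM in LV WT-PLN, at 279, 259 and 339 TPM in RV WT-PLN, at 243, 295 and 404 TPM in LV R14del-PLN and at 266, 371 and 235 TPM in RV R14del-PLN, so that no pair of groups was separated.

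Of the Z-disc genes, Tcap, which caps the titin ends, was the highest with 1722, 1643 and 1895 TPM in LV WT-PLN and 1551, 1372 and 1431 TPM in RV WT-PLN. In R14del-PLN, Tcap was at 1248, 1311 and 1996 TPM in LV and at 1215, 1412 and 1168 TPM in RV. RV lay below LV in WT-PLN without overlap, and LV R14del-PLN overlapped each of the other groups. The remaining Z-disc genes ran from Csrp3 at 1032 TPM and Myoz2 at 701 TPM through Actn2 (530 TPM), Ldb3 (424 TPM), Pdlim5 (353 TPM), Nexn (314 TPM), Smpx (227 TPM) and Ankrd23 (186 TPM) to Flnc (37.4 TPM) and Synpo2l (29.8 TPM).

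Desmin (Des), the muscle intermediate filament protein that links Z-discs, was at 506, 498 and 554 TPM in LV WT-PLN and at 428, 404 and 471 TPM in RV WT-PLN. It was at 422, 399 and 559 TPM in LV R14del-PLN and at 379, 436 and 391.7 TPM in RV R14del-PLN. Ventricles were separated for Des in WT-PLN only, which does not show that the genotypes differ. Its partner Synm was the lowest of the 38 genes at 2.08 TPM. Of the Xin repeat proteins, which bind actin at the intercalated disc, Xirp2 was the higher and varied widely, at 44.2, 60.8 and 67.8 TPM in LV WT-PLN, 30.03, 47.2 and 58.5 TPM in RV WT-PLN, 46.8, 58.8 and 79.4 TPM in LV R14del-PLN and 36.8, 86.9 and 49.5 TPM in RV R14del-PLN. Xirp1 averaged 33.3 TPM.

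Among the genes of assembly and turnover, Trim54, a muscle RING-finger ubiquitin ligase, was at 159, 168 and 179 TPM in LV WT-PLN and at 123, 136 and 128 TPM in RV WT-PLN. It was at 144, 141 and 214 TPM in LV R14del-PLN and at 120.2, 185 and 126 TPM in RV R14del-PLN. Again only the WT-PLN ventricles did not overlap. The methyltransferase Smyd1 averaged 139.5 TPM, the myosin chaperone Unc45b averaged 60.01 TPM and the ligase Trim55 averaged 41.7 TPM. Across the 12 samples the coefficient of variation of the 38 genes had a median of 18.06%, against 18.02% over all 12526 tested genes, and ranged from 8.31% for Smpx to 46.0% for Ankrd23.

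**Figure D2:**
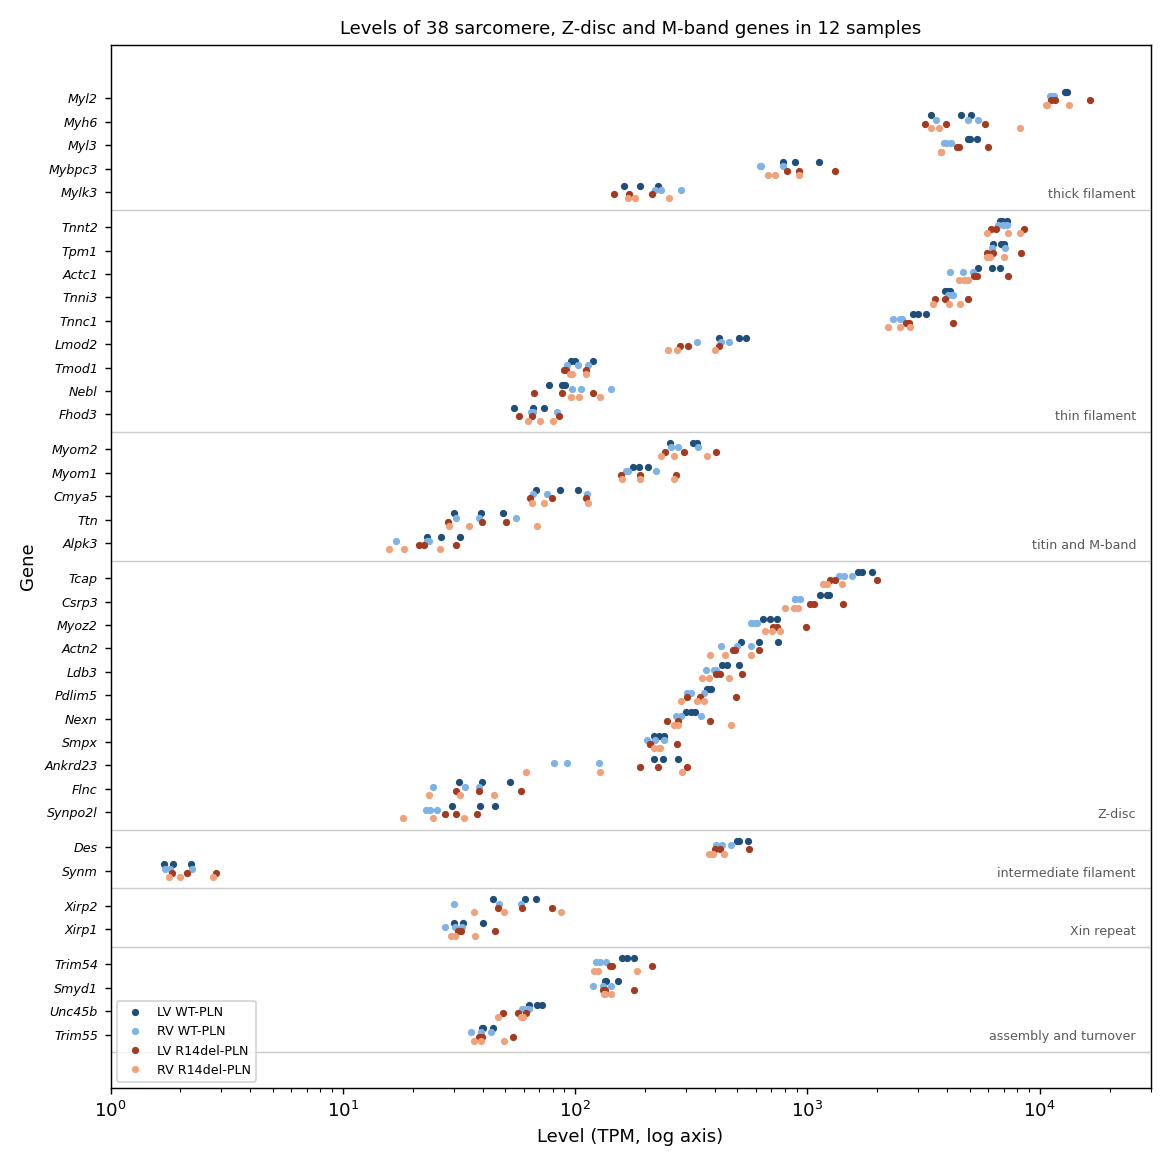
TPM on a log axis of each of the 38 genes in the 12 samples, ordered by role and by mean level, 1 point per sample and 1 colour per group of ventricle and genotype. Levels span from Synm (2.08 TPM on average) to Myl2, and the 4 groups lie close together for most genes, with Ankrd23 spread furthest.

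R14del-PLN was first compared with WT-PLN in the LV. None of the 38 genes passed the test, which set a ceiling of 0.05 on the Benjamini-Hochberg adjusted p and a floor of 1.5 on the fold change in either direction in a limma model of log2(TPM + 1) over 12526 genes, whereas 0.519% of all tested genes did (65 genes). At an unadjusted p under 0.05, 2 of the 38 genes were lower and 0 higher, against 9.6% of all genes. The direction of this tally turned with the scaling, as did that of all genes. Of the 38, 1 was lower and 6 higher under upper quartile scaling, and 1 lower and 5 higher under quantile normalization. Without the mitochondrially encoded genes 3 were lower and 1 higher. Over all genes 983 were lower and 220 higher in TPM, and 1441 and 347 without the mitochondrially encoded genes. Under upper quartile scaling 830 were lower and 948 higher, and under quantile normalization 827 and 980. The median log2 fold change was -0.02 for the 38 genes and -0.09 for all genes, with 16 of the 38 positive, and under upper quartile scaling the medians were 0.10 and 0.01, with 30 of the 38 positive. For 28 of the 38 genes the 95% interval of the fold change lay within 1.5-fold in either direction, and the 10 exceptions included Myh6, Ttn, Actn2 and Ankrd23.

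Lmod2, a leiomodin that lengthens thin filaments, had the largest difference between genotypes in LV. Its TPM was 417, 508 and 544 in LV WT-PLN and 282, 306 and 418 in LV R14del-PLN, so that the highest mutant sample lay just above the lowest control. The log2 fold change was -0.56 ± 0.20 (SE) with an adjusted p of 0.345 by limma. Of the list, only Unc45b, which folds the myosin head, had LV groups without overlap in TPM, against 11% of all genes. It was at 63.2, 68.6 and 71.9 TPM in WT-PLN and at 56.9, 49.1 and 61.2 TPM in R14del-PLN, a log2 fold change of -0.28 ± 0.13 (adjusted p = 0.496, limma). Without the mitochondrially encoded genes, 4 of the 38 genes were separated in LV, against 20.3% of all genes. Lmod2, Des and Unc45b were then lower in R14del-PLN and Myoz2 was higher.

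Myoz2 (calsarcin-1), a Z-disc protein that binds calcineurin, was at 644, 741 and 690 TPM in LV WT-PLN and at 710, 743 and 983 TPM in LV R14del-PLN. Its log2 fold change was 0.22 ± 0.13, with an adjusted p of 0.650 by limma and groups that overlapped in TPM. The thick filament genes moved little in LV, between -0.12 for Mylk3 and 0.11 for Mybpc3 on the log2 scale, as did titin and the M-band genes, between -0.14 for Alpk3 and 0.08 for Myom1.

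Single samples turned the direction of the list in LV either way. Without LV R14del-PLN replicate 3, 36 of the 38 genes had a negative log2 fold change and their median was -0.19, as was the median over all genes. Without LV R14del-PLN replicate 1, 30 of the 38 were positive and the median was 0.11, against -0.02 over all genes. Leaving out replicate 1 of LV WT-PLN gave 30 negative (median -0.08, against -0.15 over all genes). Leaving out replicate 3 of LV WT-PLN gave 22 positive (median 0.04, against -0.02 over all genes). No gene of the list passed the test in any of these cases.

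In the RV, 0 of the 38 genes passed the limma test for R14del-PLN against WT-PLN, against 0.271% of all tested genes (34 genes), and 0 reached an unadjusted p under 0.05, against 6.22%. At that p, 3 were higher and 0 lower under quantile normalization. Under upper quartile scaling 1 was higher and 1 lower, and likewise without the mitochondrially encoded genes. Over all genes 353 were higher and 426 lower in TPM, 865 and 730 under quantile normalization, and 950 and 634 under upper quartile scaling. Without the mitochondrially encoded genes 891 of all genes were higher and 474 lower. The median log2 fold change was 0.02 for the 38 genes and 0.00 for all genes, and the interval lay within 1.5-fold for 30 of the 38. The RV groups did not overlap for 2 of the 38 genes, against 11% of all genes. These were Myoz2, at 570, 607 and 594 TPM in WT-PLN and at 706, 764 and 658 TPM in R14del-PLN, and Myl3, at 3892, 3967 and 4172 TPM in WT-PLN and at 3758, 3760 and 3773 TPM in R14del-PLN.

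All mutant RV samples were above the controls for Myoz2 and below them for Myl3. The log2 fold change of Myoz2 in RV was 0.26 ± 0.13 (adjusted p = 0.855, limma) and that of Myl3 was -0.09 ± 0.12 (adjusted p = 1.00, limma). The direction for Myl3 turned under quantile normalization of the samples, to 0.10, and its groups overlapped after the mitochondrially encoded genes were removed, while Myoz2 stayed higher under every scaling tried. Lmod2 was again lower in the mutant, at 335, 424 and 461 TPM in RV WT-PLN and at 251, 399 and 275 TPM in RV R14del-PLN. Its log2 fold change of -0.42 ± 0.20 had an adjusted p of 0.824 by limma, and the groups overlapped through RV R14del-PLN replicate 2.

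Mylk3 was at 234, 221 and 286 TPM in RV WT-PLN and at 254, 182 and 168 TPM in RV R14del-PLN, a log2 fold change of -0.31 ± 0.19 (adjusted p = 0.979, limma) with overlapping groups. Without RV R14del-PLN replicate 2, which carried the highest Myh6, Ttn and Xirp2 of all samples, 33 of the 38 genes had a negative log2 fold change in RV and their median was -0.09, while with it 15 of 38 were negative. Over all genes 63.1% were negative without it and 50.9% with it. Without RV WT-PLN replicate 3 the median of the list was 0.09 and 10 were negative, against 38.6% of all genes. Without RV WT-PLN replicate 1 the median was -0.03 and 23 were negative, against 59.2% of all genes. The difference of Ankrd23 in RV, 0.42 ± 0.40 on the log2 scale, rested on RV R14del-PLN replicate 2, which was at 289.5 TPM against 61.2 and 128.0 TPM in the other RV R14del-PLN samples.

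The mean of the LV and RV genotype differences was added after the comparisons above had been seen. It treats LV and RV samples as independent, which the labels leave unstated. In this average 0 of the 38 genes passed the limma test, against 1.43% of all genes, and at an unadjusted p under 0.05 1 gene was higher (Myoz2) and 2 were lower (Lmod2 and Unc45b), against 14.5% of all genes. This tally turned with the scaling, as did that of all genes. Of the 38, 7 were higher and 1 lower under upper quartile scaling, and 5 higher and 2 lower under quantile normalization. Without the mitochondrially encoded genes 1 was higher and 4 lower. Over all genes 511 were higher and 1307 lower in TPM, and 987 and 1455 without the mitochondrially encoded genes. Under upper quartile scaling 1614 were higher and 1187 lower, and under quantile normalization 1589 and 1262. Lmod2 averaged -0.49 ± 0.14 (adjusted p = 0.107, limma), Myoz2 0.24 ± 0.09 (adjusted p = 0.2496) and Unc45b -0.22 ± 0.09 (adjusted p = 0.267). Lmod2 reached the call without RV R14del-PLN replicate 2 (-0.59, adjusted p = 0.0301) and without both WT-PLN replicate 1 samples (-0.61, adjusted p = 0.0475), and its adjusted p ranged from 0.0235 to 0.239 over the alternatives. When LV and RV of one number were averaged first, the smallest adjusted p of the 38 genes was 0.201. Myoz2 reached an adjusted p of 0.00992 under quantile normalization, 0.0121 under upper quartile scaling and 0.0178 without the mitochondrially encoded genes (limma). Its log2 fold changes of 0.32, 0.31 and 0.27 stayed below the required 1.5-fold. Tcap, lower in R14del-PLN, reached 0.0419 without LV R14del-PLN replicate 3, at a log2 fold change of -0.33 that was also below 1.5-fold. For 35 of the 38 genes the averaged interval lay within 1.5-fold, the exceptions being Lmod2, Ankrd23 and Xirp2.

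**Figure D3:**
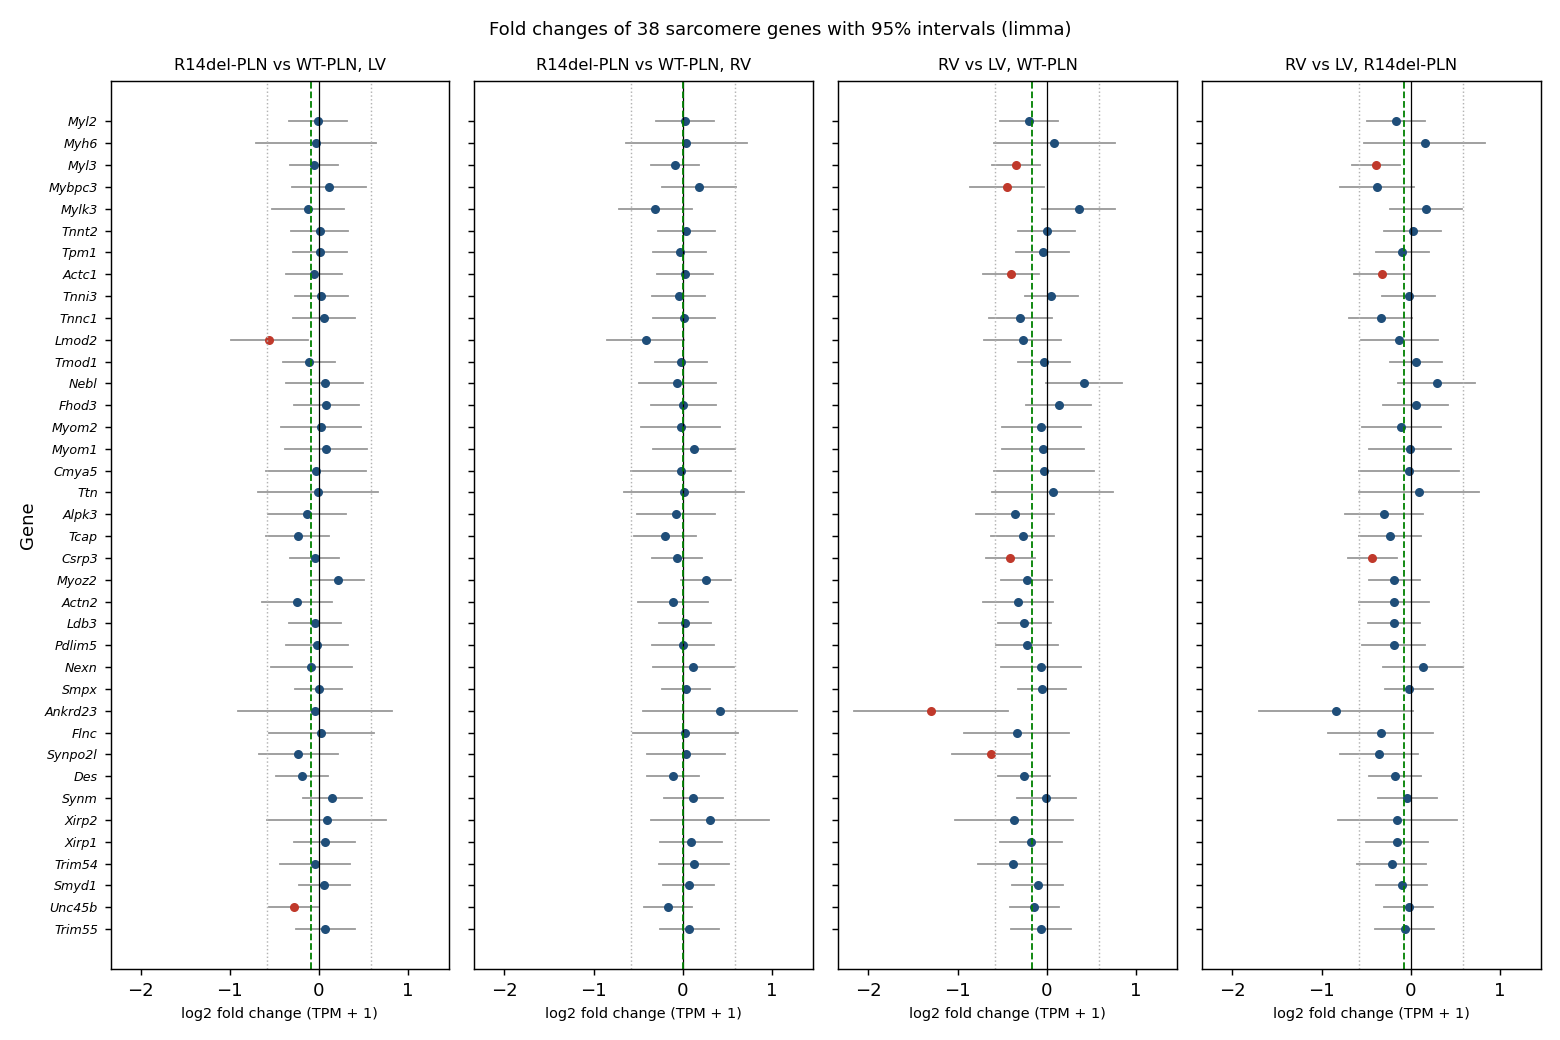
Log2 fold change (points) and 95% interval (lines) from limma for each of the 38 genes in the 4 comparisons, with points in red at an unadjusted p under 0.05, dotted lines at 1.5-fold and a dashed green line at the median of all tested genes. No gene passed the test, Lmod2 is the lowest point in both genotype panels and Ankrd23 in both ventricle panels.

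RV was then compared with LV in WT-PLN. Most of the 38 genes had lower TPM in RV, as did most genes of the transcriptome, since 32 of the 38 and 85.9% of all tested genes had a negative log2 fold change. The medians were -0.19 for the 38 genes and -0.17 for all genes. RV samples held more mitochondrial transcript, and the all-gene median moved to -0.06 without the mitochondrially encoded genes and to -0.01 under upper quartile scaling, with the median of the 38 genes at -0.05 and 0.00. Under all 4 scalings 19 of the 38 genes were lower in RV and 6 were higher, and 13 changed direction.

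None of the 38 genes passed the limma test between WT-PLN ventricles, where 0% of all genes did. With the replicate number as a block, 12 genes passed in all and again 0 of the 38. At an unadjusted p under 0.05, 6 of the 38 were lower in RV and 0 higher, against 14.5% of all genes, namely Ankrd23, Csrp3, Synpo2l, Myl3, Actc1 and Mybpc3. That all were lower depended on the scaling. Without the mitochondrially encoded genes 5 were lower and 4 higher, under upper quartile scaling 3 and 4, and under quantile normalization 5 and 3. Over all genes 1729 were lower and 82 higher in TPM, and 1002 and 271 without the mitochondrially encoded genes. Under upper quartile scaling 749 of all genes were lower and 583 higher, and under quantile normalization 662 and 718. The groups did not overlap for 14 of the 38 genes, 13 lower and 1 higher (Nebl), against 26.1% of all genes. Without the mitochondrially encoded genes they did not overlap for 8 lower and 5 higher genes, against 15.1% of all genes. Myl2, Tcap, Ldb3, Pdlim5 and Myoz2 were then no longer separated, and Mylk3, Tnnt2, Tnni3 and Fhod3 joined Nebl as separated and higher in RV.

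Ankrd23, an ankyrin repeat protein that binds titin and responds to stretch, had the largest ventricle difference. It was at 238, 219 and 276 TPM in LV WT-PLN and at 80.8, 127 and 91.9 TPM in RV WT-PLN, without overlap. In R14del-PLN it was at 190, 227 and 304 TPM in LV and at 61.2, 289.5 and 128.0 TPM in RV, where replicate 2 lay inside the LV range. The log2 fold change, RV minus LV, was -1.30 ± 0.40 in WT-PLN (adjusted p = 0.251, limma) and -0.84 ± 0.40 in R14del-PLN (adjusted p = 0.768, limma).

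Csrp3 (muscle LIM protein), a Z-disc protein implicated in mechanical sensing, was at 1238, 1131 and 1220 TPM in LV WT-PLN and at 931, 883 and 884 TPM in RV WT-PLN. In R14del-PLN it was at 1028, 1067 and 1417 TPM in LV and at 872, 801 and 908 TPM in RV. Every RV sample lay below every LV sample of its genotype. The log2 fold changes were -0.41 ± 0.13 (adjusted p = 0.253, limma) and -0.43 ± 0.13 (adjusted p = 0.711, limma), and the gene was lower in RV under all scalings tried.

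Synpo2l, an actin-bundling Z-disc protein, was at 39.1, 29.5 and 45.2 TPM in LV WT-PLN and at 25.6, 22.7 and 23.7 TPM in RV WT-PLN. It was at 27.6, 30.8 and 37.7 TPM in LV R14del-PLN and at 18.2, 33.1 and 24.5 TPM in RV R14del-PLN. The groups were separated in WT-PLN, at a log2 fold change of -0.62 ± 0.20 (adjusted p = 0.261, limma), and overlapped in R14del-PLN, at -0.36 ± 0.20 (adjusted p = 0.837, limma).

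In the thick filament, Myl3 was at 4902, 5005 and 5396 TPM in LV WT-PLN and at 4517, 4408 and 5988 TPM in LV R14del-PLN, all above the RV values of 3758 to 4172 TPM given above. Its log2 fold change between ventricles was -0.35 ± 0.12 in WT-PLN (adjusted p = 0.291, limma) and -0.39 ± 0.12 in R14del-PLN (adjusted p = 0.711, limma). Mybpc3 was lower in RV by -0.45 ± 0.19 in WT-PLN and -0.38 ± 0.19 in R14del-PLN on the log2 scale, while Myh6 (0.09 and 0.16) and Mylk3 (0.36 and 0.17) had higher means in RV, none of them past the test.

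In the thin filament, cardiac actin (Actc1) was at 5450, 6244 and 6742 TPM in LV WT-PLN and at 4117, 4654 and 5187 TPM in RV WT-PLN. It was at 5387, 5236 and 7270 TPM in LV R14del-PLN and at 4499, 4740 and 4923 TPM in RV R14del-PLN. RV lay below LV in both genotypes, at log2 fold changes of -0.40 ± 0.15 (adjusted p = 0.293, limma) and -0.32 ± 0.15 (adjusted p = 0.751, limma). The WT-PLN ventricle differences of Tnnt2 (0.00), Tnni3 (0.05) and Tpm1 (-0.05) on the log2 scale of TPM depended on the scaling, being 0.14, 0.19 and 0.09 without the mitochondrially encoded genes, 0.19, 0.25 and 0.15 under upper quartile scaling and -0.12, 0.09 and -0.07 under quantile normalization. Nebl was the gene of the list with the clearest excess in RV, at 76.9, 88.0 and 90.1 TPM in LV WT-PLN and 97.1, 106 and 142 TPM in RV WT-PLN, and at 66.6, 87.9 and 119 TPM in LV R14del-PLN and 104, 128 and 96.5 TPM in RV R14del-PLN. Its log2 fold changes were 0.42 ± 0.20 (adjusted p = 0.3503, limma) without overlap and 0.29 ± 0.20 (adjusted p = 0.880, limma) with overlap.

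**Figure D4:**
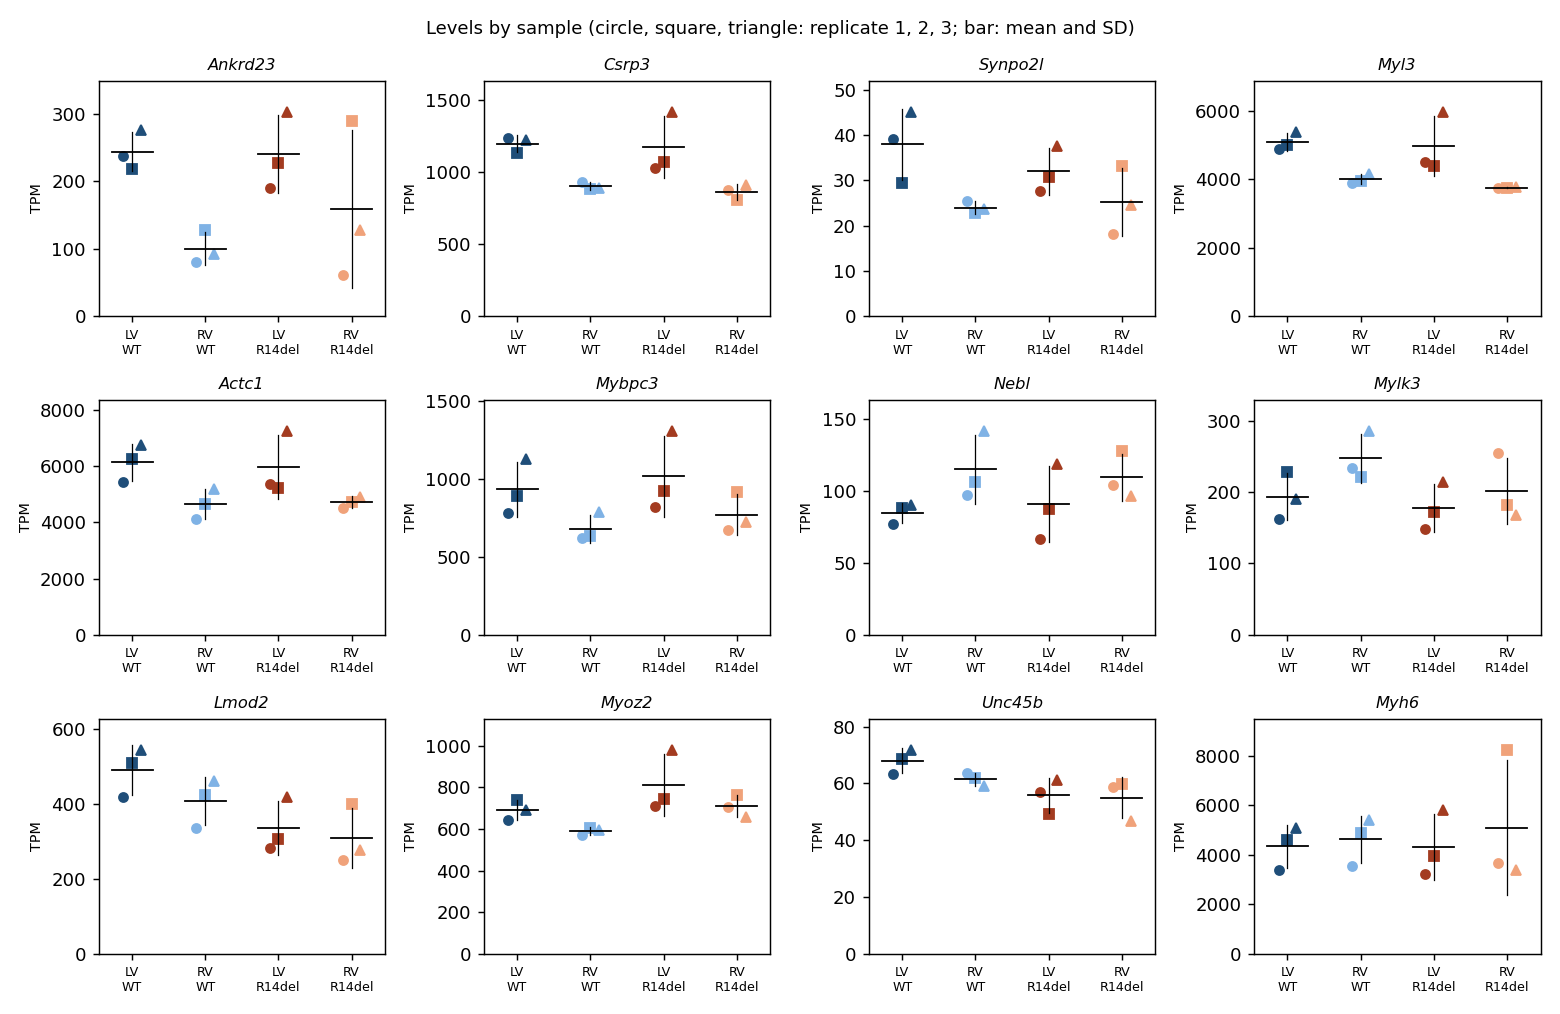
TPM of 12 of the genes in every sample, with circle, square and triangle for replicates 1, 2 and 3, a horizontal bar for the group mean and a vertical bar for the SD (n = 3). Csrp3, Myl3 and Actc1 are lower in every RV sample than in every LV sample of the same genotype, and RV R14del-PLN replicate 2 stands high for Ankrd23 (289.5 TPM) and Myh6 (8262 TPM).

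In R14del-PLN, 0 of the 38 genes passed the limma test between ventricles, where 0% of all genes did, and 3 were lower in RV at an unadjusted p under 0.05 (Csrp3, Myl3 and Actc1), against 6.57% of all genes. At that p, 2 were lower and 2 higher without the mitochondrially encoded genes. There were 4 lower and 1 higher under upper quartile scaling, and 3 lower and 5 higher under quantile normalization. Over all genes 760 were lower and 63 higher in TPM, and 258 and 747 without the mitochondrially encoded genes. Under upper quartile scaling 552 of all genes were lower and 518 higher, and under quantile normalization 541 and 570. Csrp3, Myl3 and Actc1 were also the genes whose groups did not overlap in TPM, against 9.98% of all genes. After the mitochondrially encoded genes were removed, Myl3 and Csrp3 stayed separated and lower in RV, and 5 genes including Nebl and Mylk3 were separated and higher, against 15.1% of all genes separated. The median log2 fold change was -0.14 for the 38 genes and -0.08 for all genes, with 30 of 38 negative. Without LV R14del-PLN replicate 3 the median was 0.04 and 15 were negative, against 0.02 and 43.7% over all genes. Without RV R14del-PLN replicate 2 the median was -0.26 and 36 were negative, against -0.13 and 79.3% over all genes. The direction of the list as a whole, and that of all genes, thus turned with LV R14del-PLN replicate 3. Both also depended on the scaling. Without the mitochondrially encoded genes the medians were 0.02 for the 38 genes and 0.06 for all genes, with 17 of 38 negative. Under quantile normalization they were 0.03 and 0.00, with 16 negative, and under upper quartile scaling -0.04 and 0.00, with 22 negative.

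By role, all 11 Z-disc genes had a negative log2 fold change in WT-PLN (median -0.27) and 10 of 11 in R14del-PLN (median -0.19), the exception being Nexn. Of the 9 thin filament genes 6 were negative in WT-PLN and 5 in R14del-PLN, with medians of -0.03 and -0.02. Of the 5 thick filament genes 3 were negative in each genotype, with medians of -0.20 and -0.17, and of the 5 titin and M-band genes 4 were, with medians of -0.05 and -0.02. All 4 genes of assembly and turnover, both intermediate filament genes and both Xin repeat genes were negative in both genotypes. Over all genes 85.9% were negative in WT-PLN and 70.3% in R14del-PLN, and these counts follow the TPM scale.

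Marker sums of several cell types were separated between ventricles in WT-PLN, where 26.1% of all genes were separated on the same TPM scale. The sums were not rescaled for the higher mitochondrial share of RV. The fibroblast, macrophage, smooth muscle and atrial sums overlapped between the WT-PLN ventricles. The summed cardiomyocyte markers were 19412 to 20685 TPM in LV and 16753 to 17288 TPM in RV. The 6 endothelial markers were 148 to 188 TPM in LV and 109 to 127 TPM in RV, the 5 red cell genes 2087 to 2316 TPM and 1461 to 1736 TPM, and the 8 skeletal muscle markers 7.18 to 8.68 TPM and 3.07 to 5.45 TPM. In R14del-PLN the endothelial sums were also separated, at 145.3 to 184 TPM in LV and 118 to 145.2 TPM in RV. The red cell sums further separated the genotypes in RV, at 956 to 1368 TPM in R14del-PLN against the WT-PLN range above. No marker was at 0 in all samples. Their part in the differences of the 38 genes was not tested.

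The mean of the WT-PLN and R14del-PLN ventricle differences was likewise added after seeing the data. None of the 38 genes passed the limma test, against 0.263% of all genes, and at an unadjusted p under 0.05 13 were lower in RV and 1 was higher (Nebl), against 21.5% of all genes. The split was 7 lower and 7 higher without the mitochondrially encoded genes. It was 7 lower and 4 higher under upper quartile scaling, and 6 lower and 5 higher under quantile normalization. Over all genes 2567 were lower and 125 higher in TPM, and 1000 and 837 without the mitochondrially encoded genes. Under upper quartile scaling 1145 of all genes were lower and 1033 higher, and under quantile normalization 1063 and 1179. Csrp3 averaged -0.42 ± 0.09 (adjusted p = 0.0555, limma), Myl3 -0.37 ± 0.09 (adjusted p = 0.0638) and Ankrd23 -1.07 ± 0.28 (adjusted p = 0.0749). Ankrd23 passed with the replicate block (adjusted p = 0.0237) and without RV R14del-PLN replicate 2 (-1.35, adjusted p = 0.0125), and its adjusted p ranged from 0.0125 to 0.193 over the alternatives. Csrp3 and Myl3 reached adjusted p-values of 0.0397 and 0.0486 when only genes of at least 5 TPM were tested, at fold changes below 1.5. Nebl, higher in RV, reached 0.0373 under quantile normalization and 0.0327 under upper quartile scaling (limma), also below 1.5-fold. Myl3, lower in RV, reached 0.0349 under quantile normalization.

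Whether the genotype difference differed between ventricles was tested as an interaction. None of the 38 genes passed the limma test, where 0% of all genes did, and 0 of the 38 and 127 of all genes had an unadjusted p under 0.05. The smallest p-values of the list belonged to Synpo2l, at 0.26 ± 0.29 on the log2 scale, and Ankrd23, at 0.47 ± 0.57, both with an adjusted p of 1.00 by limma. The Ankrd23 difference turned to -0.10 without RV R14del-PLN replicate 2. The 95% interval lay within 1.5-fold for 20 of the 38 genes, and it reached past 1.5-fold for the other 18.

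Ratios of pairs of genes within a sample do not depend on the mitochondrial share. The pairs can differ in transcript length, with 1.47 kb for Actc1 against 6.11 kb for Myh6, and 5.84 kb for Xirp1 against 11.98 kb for Xirp2. The part of the length trend described below in these ratios was not tested. For 5 pairs and 4 comparisons, 20 two-sided exact permutation tests were made, in which 3 samples against 3 cannot give a p below 0.1. The ratio of Myl2 to Myl3, the regulatory to the essential light chain, was 2.69, 2.56 and 2.42 in LV WT-PLN and 2.91, 2.80 and 2.77 in RV WT-PLN. It was 2.57, 2.53 and 2.75 in LV R14del-PLN and 2.85, 3.55 and 2.81 in RV R14del-PLN, so that RV exceeded LV without overlap in both genotypes (exact p = 0.1, adjusted p = 0.667 in each).

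The ratio of Actc1 to Myh6, the main actin to the main myosin, was 1.61, 1.36 and 1.33 in LV WT-PLN and 1.16, 0.950 and 0.957 in RV WT-PLN, lower in RV without overlap (exact permutation p = 0.1, adjusted p = 0.667). In R14del-PLN it was 1.67, 1.32 and 1.25 in LV and 1.23, 0.574 and 1.45 in RV, which overlapped (exact permutation p = 0.4). The troponin ratio Tnni3 to Tnnt2 stayed between 0.550 and 0.607 in all 12 samples. Myom2 to Myom1 ranged from 1.24 to 1.79 and Xirp1 to Xirp2 from 0.425 to 0.917, with overlapping groups in every comparison. The groups overlapped for every ratio between genotypes, and the smallest adjusted p over all 20 tests was 0.667.

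Part of the spread within groups followed transcript length. Ttn, whose annotated transcript of 106.8 kb is the longest of the list, was at 30.2, 30.6, 28.4 and 28.7 TPM in replicate 1 of LV WT-PLN, RV WT-PLN, LV R14del-PLN and RV R14del-PLN, and at 34.8 to 68.4 TPM in the other 8 samples. Replicate 1 was the lowest of its group in all 4 groups for 11 of the 38 genes. Across the 38 genes, Spearman's rho between transcript length and a gene's deviation from its mean ran from -0.67 in LV WT-PLN replicate 1 to 0.57 in RV R14del-PLN replicate 2, and across 12261 tested genes with a length it ran from -0.33 to 0.36 in the same 2 samples. The genes share a library, and these values are a description. The part of this trend in the comparisons was not tested.

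Promoter sequences are shown for 6 genes with the same direction in both ventricles or both genotypes, chosen after the motif search so that each muscle motif found is seen in its place beside 1 gene without any. Of the 38 genes, 32 had 44 promoter entries in RefSeq (GRCm38.p6), and the 250 bases before each start were searched on both strands. A CArG box, the site of serum response factor, was found in 6 of 44 (13.6%) against 1.47% of 32851 promoters, and a MEF2 box in 5 of 44 (11.4%) against 0.508%. The plain words TATAAA (9.09% against 12.4%), AGATAA (20.5% against 9.99%), GGAATG (25% against 12.6%) and CCCGCCC (13.6% against 23.4%) were searched likewise, and the entries of one gene can overlap. A match is a description of the sequence and not of binding. Nebl, with higher means in RV, also had a CArG box, 162 bases before the start of one entry. The Csrp3 entries held none of the motifs and the Ankrd23 entries no CArG or MEF2 box, though both genes had lower means in RV. A link between motif and direction was not tested.

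The sequences below run 5′ to 3′ in the direction of transcription, with a CArG or MEF2 box in capitals. Myl3 (chr9:110763428-110763677, plus strand) and Actc1 (chr2:114052876-114053125, minus strand), both lower in RV than in LV in all samples of either genotype, each hold a CArG box, which begins 85 and 47 bases before the start.
Myl3: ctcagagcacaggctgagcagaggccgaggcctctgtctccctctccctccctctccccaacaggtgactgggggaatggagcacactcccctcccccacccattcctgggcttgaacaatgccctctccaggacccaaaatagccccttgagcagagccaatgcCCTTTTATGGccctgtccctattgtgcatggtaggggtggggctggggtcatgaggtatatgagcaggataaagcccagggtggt
Actc1: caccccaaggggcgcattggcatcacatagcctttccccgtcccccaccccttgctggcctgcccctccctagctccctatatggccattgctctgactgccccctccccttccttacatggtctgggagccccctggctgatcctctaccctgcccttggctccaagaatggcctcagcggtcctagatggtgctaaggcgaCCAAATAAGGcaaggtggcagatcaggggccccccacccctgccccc

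Mybpc3 (chr2:91117894-91118143, plus strand) and Synpo2l (chr14:20668355-20668604, minus strand), with lower means in RV in both genotypes, each hold a MEF2 box, at 90 and 109 bases before the start.
Mybpc3: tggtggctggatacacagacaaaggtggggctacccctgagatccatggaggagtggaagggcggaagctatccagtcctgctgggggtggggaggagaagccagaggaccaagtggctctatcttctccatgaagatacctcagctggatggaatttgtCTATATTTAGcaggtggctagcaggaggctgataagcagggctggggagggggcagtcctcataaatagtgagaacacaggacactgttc
Synpo2l: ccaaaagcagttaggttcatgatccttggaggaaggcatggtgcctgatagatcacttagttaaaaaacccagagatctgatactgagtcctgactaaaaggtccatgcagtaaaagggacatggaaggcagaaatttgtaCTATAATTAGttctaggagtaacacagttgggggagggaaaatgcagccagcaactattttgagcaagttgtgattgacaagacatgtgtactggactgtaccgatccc

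Myoz2 (chr3:123034988-123035237, minus strand), with higher means in R14del-PLN in both ventricles, holds a match to the MEF2 box 33 bases before the start. This match contains TATATA, and the search could not tell a MEF2 box from a TATA-like word there. Lmod2 (chr6:24597521-24597770, plus strand), with lower means in R14del-PLN, holds none of the motifs searched.
Myoz2: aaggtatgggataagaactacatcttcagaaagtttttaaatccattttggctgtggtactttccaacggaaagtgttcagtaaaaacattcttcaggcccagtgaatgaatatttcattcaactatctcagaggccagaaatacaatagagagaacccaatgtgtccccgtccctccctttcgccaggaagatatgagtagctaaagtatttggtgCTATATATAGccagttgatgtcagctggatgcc
Lmod2: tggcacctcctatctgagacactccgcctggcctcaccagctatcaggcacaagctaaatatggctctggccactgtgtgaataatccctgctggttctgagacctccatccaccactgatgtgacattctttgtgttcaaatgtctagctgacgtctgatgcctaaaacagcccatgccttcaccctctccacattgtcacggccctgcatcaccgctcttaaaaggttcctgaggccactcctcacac

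A second list of 48 other sarcomere genes, of which 44 passed the filter on low values, gave 0 calls by limma in each of the 5 planned comparisons. In the averaged ventricle difference 2 of the 44 passed, both lower in RV, against 0.263% of all genes, and 0 passed under quantile normalization or without the mitochondrially encoded genes. Skeletal alpha-actin (Acta1), the actin of skeletal and fetal heart muscle, was at 129, 197 and 130.2 TPM in LV WT-PLN and at 19.2, 47.3 and 36.6 TPM in RV WT-PLN, and at 66.4, 50.5 and 118 TPM in LV R14del-PLN and 6.75, 38.3 and 30.7 TPM in RV R14del-PLN. It fell in RV by 1.99 ± 0.36 on the log2 scale (adjusted p = 0.0388, limma), without overlap in either genotype. With the replicate block Acta1 also passed in WT-PLN alone (-2.18, adjusted p = 0.0436).

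Pdlim1, a PDZ-LIM protein that binds alpha-actinin, was at 54.0, 70.8 and 74.7 TPM in LV WT-PLN and at 31.4, 43.2 and 39.9 TPM in RV WT-PLN, and at 48.9, 53.2 and 68.7 TPM in LV R14del-PLN and 31.9, 45.8 and 40.2 TPM in RV R14del-PLN. Every RV sample lay below every LV sample of its genotype, and Pdlim1 fell in RV by 0.65 ± 0.13 on the log2 scale (adjusted p = 0.0495, limma). Of 22 alternatives, 10 kept the call of Acta1 and 5 that of Pdlim1, with adjusted p-values up to 0.104 and 0.129, and both stayed lower in RV throughout. Capn3, a titin-binding protease, was near the filter on low values at 0.869 ± 0.207 TPM (SD, n = 3) in LV WT-PLN and 1.65 ± 0.317 TPM in LV R14del-PLN, with log2 fold changes of 0.50 ± 0.17 in LV (adjusted p = 0.290, limma) and 0.49 ± 0.17 in RV (adjusted p = 0.512, limma), and its average of 0.50 ± 0.12 had an adjusted p of 0.0456 but stayed under the fold threshold on the log2(TPM + 1) scale. Capn3 passed, with higher levels in R14del-PLN, under 4 of 22 alternatives, namely a pseudocount of 0.5 or of 0.1, removal of the mitochondrially encoded genes and removal of RV R14del-PLN replicate 3. Its averaged log2 fold change ranged from 0.43 to 0.85 and its adjusted p from 0.00992 to 0.148 over the 22. The atrial light chain Myl7 ran from 0.190 to 319.9 TPM across samples, with the summed atrial markers, and its LV genotype difference had an adjusted p of 0.505 by limma. Fhl1, a LIM protein that binds titin, averaged -0.36 ± 0.14 between genotypes (adjusted p = 0.262, limma), and Capza2, a capping protein of the Z-disc, differed by 0.28 ± 0.16 in RV (adjusted p = 0.928, limma).

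Some levels are uncertain because genes share sequence or position. Myh6 matched a Myh7 transcript over 574 bases, 96.5% of the shorter sequence, at 97.4% identity, and Myh7 averaged 153 TPM. Only the match covering most of the shorter sequence was kept, so the full extent of similar sequence was not measured. Myom1 overlaps Myl12a (558.5 TPM) Synm overlaps Ttc23 (6.37 TPM), Smyd1 overlaps Krcc1 (26.6 TPM) and Tnnc1 overlaps Nisch (34.5 TPM), each on the opposite strand, and whether strand was used in the estimation is not given in the sources used here.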

How the data were processed

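Ventricular RNA of 12 samples in 4 groups of 3 was sequenced by the authors from polyA stranded libraries and mapped to GRCm38 with CLC Genomics Workbench. The deposited tables hold 1 TPM value per gene and sample, and each column sums to 1000000. The program and annotation behind the TPM values are not given in the sources used here, and TPM keeps no read depth.

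The 38 genes and all other lists were chosen with earlier results of these data known. The 12526 genes (of 33641 listed) averaging 0.5 TPM or more were tested on log2(TPM + 1), with a pseudocount of 1, in 1 limma model (version 3.58.1, R 4.3.3) of 4 group means with an intensity trend. P-values were adjusted by Benjamini-Hochberg over all tested genes. Fold changes on this scale understate changes of low genes. The call needed both an adjusted p no higher than 0.05 and a 1.5-fold difference, following the thresholds of the study. Ratios were compared by two-sided exact permutation tests (scipy 1.17.1). The model was run on simulated data with independent noise per gene and sample. The simulation held no correlation between same-numbered samples and no length trend, so it does not test the model under these features. Per-sample values are given for called genes, for the 3 genes of the list with the smallest unadjusted p in each comparison (2 in the interaction), and for the highest gene of each role. Of the other sarcomere genes, called genes and the 2 with the smallest unadjusted p in each comparison are named. Any other gene was named after its values were seen.

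Alternatives changed the pseudocount, filter, scaling, trend, samples, fold threshold and pairing. The deviations of same-numbered LV and RV samples from their group means correlated at 0.321 to 0.657 in WT-PLN and at 0.054 to 0.389 in R14del-PLN. Same-numbered samples of the 2 genotypes in LV correlated at -0.021 to 0.156. An LV and an RV sample of one number may thus share a mouse in WT-PLN, which no label states. The main model treats all samples as independent. A fit without 2 R14del-PLN samples picked for the summed level of the genes was set aside because the choice rested on the outcome. Coordinates and transcript lengths are from GENCODE M21 and promoters from RefSeq, both on GRCm38, and similar transcripts were found with BLAST 2.17.0 at 95% identity over 80% of the shorter sequence.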

Additional observations from a re-analysis of the deposited data

How the results depend on the processing

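In each of the 5 planned comparisons 0 of the 38 genes were called under any alternative run. In the averaged comparisons, 1 gene was called between genotypes without both WT-PLN replicate 1 samples (Lmod2) and 1 between ventricles with the replicate block (Ankrd23), and leaving out single samples gave 0 to 1 and 0 to 2 calls. For the ventricle comparisons the replicate block was the number within a genotype. It raised the calls over all genes from 0 to 12 between WT-PLN ventricles and to 95 in the averaged ventricle difference. For the genotype comparisons the block was the number alone, which joins WT-PLN and R14del-PLN samples that no label pairs. The calls between genotypes were then 119 in LV and 62 in RV, and they rest on that joining. The 6-sample fits were not available for the interaction or the averages. Depth is unknown, so that counting error could not be set apart from the spread between samples.

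On the log2 scale of the ratio, Actc1 to Myh6 between genotypes in RV was -0.0137 and Xirp1 to Xirp2 between ventricles in R14del-PLN was -0.00281, opposite in sign to the difference of means. Leaving out single samples moved the Ankrd23 interaction from -0.10 to 1.01. It moved the genotype difference in LV from -0.145 to 0.0717 for Actc1 to Myh6, from -0.00303 to 0.132 for Myl2 to Myl3, from -0.00347 to 0.0139 for Tnni3 to Tnnt2, from -0.149 to 0.0266 for Myom2 to Myom1 and from -0.0459 to 0.0280 for Xirp1 to Xirp2. In RV it moved from -0.121 to 0.318 for Actc1 to Myh6 and from -0.198 to 0.0148 for Xirp1 to Xirp2. The ventricle difference moved in WT-PLN from -0.0962 to 0.0792 for Myom2 to Myom1 and from -0.00586 to 0.175 for Xirp1 to Xirp2, and in R14del-PLN from -0.207 to 0.00597 and from -0.0884 to 0.114. The cause was not tested.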
